A study of Mus musculus with 22 samples.

Results

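Serotonin and granule genes of the gut, Tph1, Ddc, Slc18a1, Chga, Chgb and Tac1, were followed gene by gene through 6 flow-sorted cell types of the mouse colon crypt. They were chosen by name as genes of enterochromaffin cells, the serotonin-making enteroendocrine cells, and are 6 of the 24421 genes in the count tables. All 6 passed the filter on low counts, which left 22781 genes to test. RNA-seq libraries were made from male wild type C57BL/6N mice 5 to 7 weeks old, 3 of stem cells (Stem), 3 of absorptive progenitors (AbsPro), 4 of secretory progenitor, deep crypt secretory and goblet cells (SecPDG), 5 of tuft cells (Tuft), 5 of enterocytes (Enterocyte) and 2 of enteroendocrine cells (EEC). Every gate took live Epcam+, Cd31-, Cd45- cells. Stem cells were Cd44 highest, Cd24 low and Ckit-, AbsPro Cd44 med/hi, Cd24 low and Ckit-, and SecPDG Cd44 hi, Cd24 med and Ckit med. Tuft cells were Ckit+ and Cd24 hi, enterocytes Cd44 low/- and Cd24-, and EECs Cd44 low/- and Cd24+. A library held at least 2500 cells. Per the paper, each Stem and AbsPro library came from a single mouse. The libraries of the other cell types were pools of mice, largest in EEC. A pooled library is a mean over animals, and in EEC over all endocrine cells of the gate. The number of mice pooled went with cell type, and its part in the spread between libraries was not tested.

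Enterochromaffin cells make serotonin from tryptophan. Tph1 encodes the rate-limiting tryptophan hydroxylase of the gut, Ddc the aromatic amino acid decarboxylase that completes the synthesis, and Slc18a1 the vesicular monoamine transporter (VMAT1) that loads serotonin into granules. Chga and Chgb encode chromogranins A and B, acidic proteins of the dense core granule that bind monoamines and calcium. Tac1 encodes the precursor of substance P and neurokinin A, peptides made by some enterochromaffin cells and by enteric neurons. Serotonin released from these cells acts on nerves and muscle of the gut wall. In GRCm38 (GENCODE vM21), Tph1 lies at chr7:46644641-46672537, Ddc at chr11:11814101-11898144 and Slc18a1 at chr8:69037711-69089235, all on the minus strand. Chga lies at chr12:102554969-102565028, Chgb at chr2:132781278-132795079 and Tac1 at chr6:7554879-7565834, all on the plus strand.

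The start sites of the chromogranin genes are shown because Chga and Chgb had the most closely matched patterns of the 6 genes across the libraries. The 250 bases before each RefSeq start (GRCm38.p6) were searched on both strands for the cAMP response element (CRE), TGACGTCA, and for the 5-base core of that element, called a core site here, TGACG. In the lines below the matches are in capitals, and both sequences run in the direction of transcription on the plus strand. The first lies at chr12:102554691-102554940 and the second at chr2:132781392-132781641.
Chga: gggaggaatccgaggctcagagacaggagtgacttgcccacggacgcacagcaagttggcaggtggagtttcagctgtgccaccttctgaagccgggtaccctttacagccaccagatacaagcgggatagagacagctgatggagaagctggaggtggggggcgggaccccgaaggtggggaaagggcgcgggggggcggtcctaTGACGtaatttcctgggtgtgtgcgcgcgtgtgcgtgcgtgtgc
Chgb: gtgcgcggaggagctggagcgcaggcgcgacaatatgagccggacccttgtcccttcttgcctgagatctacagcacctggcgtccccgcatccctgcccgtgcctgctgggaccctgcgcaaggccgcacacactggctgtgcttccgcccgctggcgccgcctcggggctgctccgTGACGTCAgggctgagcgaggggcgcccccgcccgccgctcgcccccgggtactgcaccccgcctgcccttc
Chgb held the full element, which starts 72 bases before the RefSeq start and contains a core site on each strand. Chga held 1 core site, 44 bases before the start. Of 32851 promoter windows of the same length, 1.55% held the full element and 17.8% a core site. These shares were not matched for base content. G and C made up 62.4% of the Chga window and 72.8% of the Chgb window, against a median of 52.4% over all windows. Also searched, and not marked above, were GGGCGG (2 in each), CANNTG (3 in Chga, 1 in Chgb) and TATAAA (0 in each). They occurred in 32.7%, 66.2% and 12.4% of windows. The Tac1 window held 2 core sites and no full element, the 2 windows of Tph1 held 1 and 3 core sites, and the 2 windows of Ddc held neither. A match is a run of letters in these windows and was not tied to any binding or activity here.

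EEC replicate 1 stood apart and enters every EEC value. It had 4122122 counts on genes, the fewest of the 22 libraries, against 13132315 in EEC 2 and 5950619 to 22462518 in the other 20. In EEC 1, 91.6% of reads were not counted on a gene for any reason (70.7% in EEC 2). Those that overlapped no counted feature were 74.3% in EEC 1 and 54.2% in EEC 2. Reads on 1542 olfactory, vomeronasal, taste, trace amine receptor and keratin-associated genes were taken as a gauge of background, and came to 1.30 (scaled per kilobase and to counts per library, as in RPKM) in EEC 1, to 0.102 in EEC 2 and to 0.00222 to 0.725 elsewhere. The EEC libraries agreed less with each other (Spearman rho 0.696 over genes) than libraries within any other cell type (0.870 to 0.969). The part of these differences in the EEC values was not tested, and results are given with and without EEC 1. The SecPDG and Tuft count tables are named by a different scheme from the other 4 cell types, and if this marks a separate run it cannot be told apart from cell type.

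Levels are normalized counts, that is, counts scaled to a common effective library size. The standard error (SE) of a log2 difference was the absolute difference divided by the square root of the F statistic of its test. It was not estimated separately from the test, also where few reads were counted. A gene was called where its Benjamini-Hochberg adjusted p, from the edgeR quasi-likelihood test over the 22781 genes, was under 0.01 and its mean at least 50 normalized counts.

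The EEC label was checked against marker lists. Of all genes tested, 6.58% were called higher in EEC than in Stem and 7.45% lower. Of 12 transcription factors of enteroendocrine cells, 8 were called higher, among them Neurod1, with 4219.6 and 13397 normalized counts in EEC 1 and 2, and Lmx1a, with 1322 and 6067. Markers of other epithelial cells were present too. Of 7 tuft cell markers measured, 6 were called higher than in Stem. The tuft list summed to 4124 and 9190.3 normalized counts in the 2 EEC libraries against 27618 to 74122 in Tuft, and Il25 was at 7.23 in EEC 1 and at 0 in EEC 2. Of 8 enterocyte markers, 5 were called higher than in Stem, with sums of 22902 and 137423 in EEC 1 and 2 against 57958 to 79617 in Enterocyte. The goblet cell list summed to 36715 and 61794 in EEC, where the lowest SecPDG library had 726303. Of its 8 genes, 1 (Zg16) was called higher than in Stem. Of 12 immune cell genes, Ptprc and Csf1r were called higher and Cd74 lower. The part of such cells in the values below was not tested, and in bulk samples fewer cells of a type and less RNA per cell cannot be told apart.

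**Figure D1:**
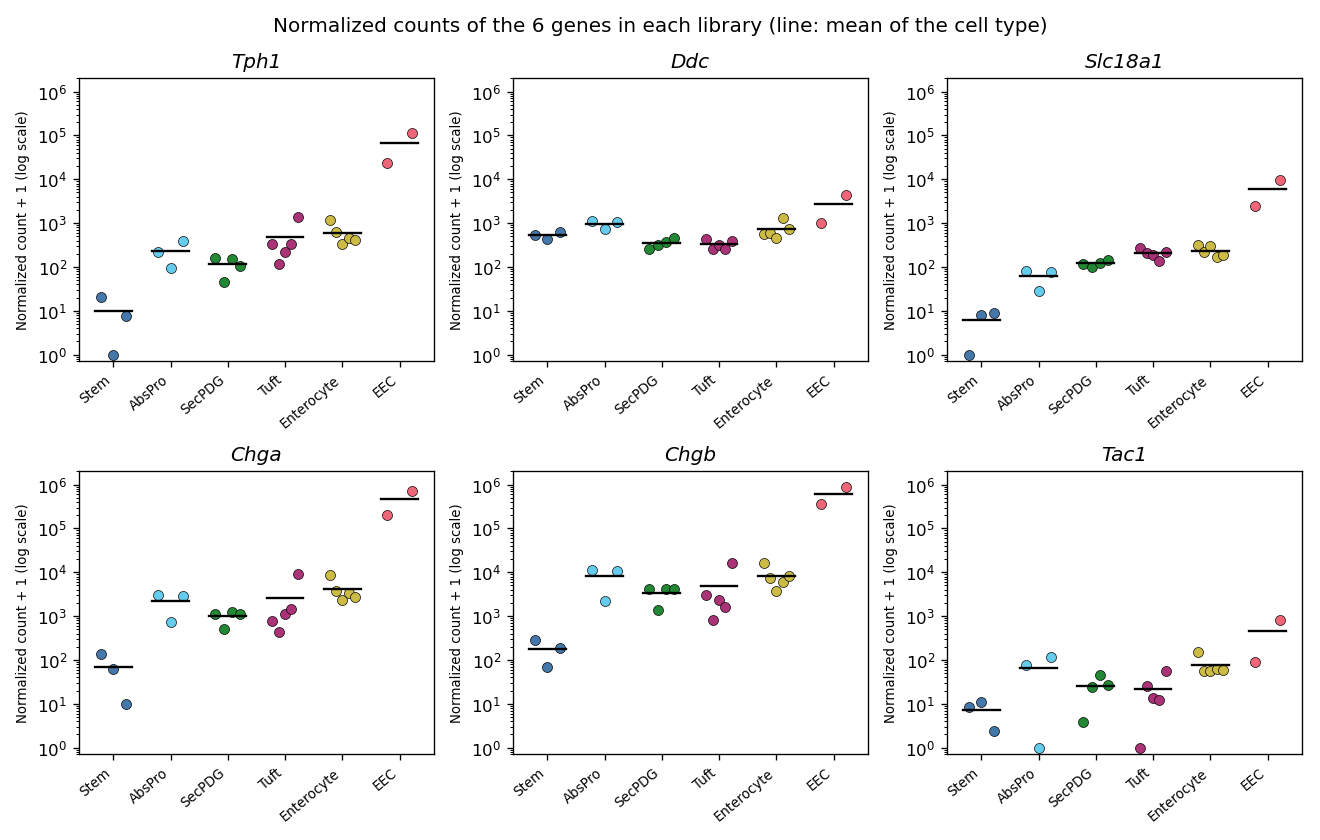
Normalized counts plus 1 (log scale) of each gene in every library, by cell type, with the mean of the cell type as a line. Tph1, Slc18a1, Chga and Chgb are higher in both EEC libraries than in any other library, and lower in every Stem library than in any other, while Ddc and Tac1 span less of the axis.

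Tph1, the first enzyme of the route, was far higher in EECs than in any other type. It had 23483 normalized counts in EEC 1 and 114316 in EEC 2, a mean of 68899 ± 64229 (SD, n = 2). In the 3 Stem libraries it had 19.9, 0 and 6.74 normalized counts, or 26, 0 and 10 reads. The other cell types lay between, apart from both. AbsPro had 223, 91.9 and 381 normalized counts, SecPDG 156, 44.8, 150 and 103, and Tuft 342, 119, 219, 339 and 1380.2. Enterocytes had 1179, 624, 332, 446 and 417. The highest library outside EEC, Tuft 5, stood at 2.00% of the EEC mean. Over Stem the EEC level was higher by 12.94 ± 1.19 (log2, SE), with an adjusted p of 3.2e-09, and without EEC 1 this was 13.53. Against Enterocyte, the next highest cell type, the log2 difference was 6.85 ± 0.75 (adjusted p = 1.4e-07). Below EEC, the order Enterocyte, Tuft, AbsPro, SecPDG held no neighbours that passed the test, whereas SecPDG was above Stem (3.70 ± 0.84, adjusted p = 0.0043).

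Ddc, the second enzyme, was shared by all 6 cell types. EEC 1 had 1012 and EEC 2 had 4395 normalized counts (2704 ± 2392, SD, n = 2). AbsPro had 1106, 752 and 1049, so that EEC 1 fell inside the AbsPro range. Stem had 549, 437 and 632 normalized counts, and the enterocyte libraries had 570.3, 583, 461, 1312 and 738. SecPDG ran from 261 to 458 with a median of 342, and Tuft from 258 to 436 with a median of 315. Every other cell type kept 12.3% to 35.9% of the EEC mean, where Tph1 kept under 1%. The gene was called higher in EEC than in Stem (log2 2.33 ± 0.45, adjusted p = 0.00028), SecPDG (2.95 ± 0.42, adjusted p = 3.3e-06), Tuft (3.02 ± 0.39, adjusted p = 1.4e-06) and Enterocyte (1.88 ± 0.39, adjusted p = 0.0016). Against AbsPro it missed the threshold (1.48 ± 0.44, adjusted p = 0.0125), but passed it with RLE size factors (2.02, adjusted p = 2.4e-05), library totals (1.72) and DESeq2 (2.02). These calls lean on EEC 2. The enterocyte list summed to 137423 normalized counts there and to 22902 in EEC 1. AbsPro libraries had 67468 to 102920 and Enterocyte libraries 57958 to 79617, and the part of absorptive cells in the Ddc values was not tested. With EEC 2 left out, the difference from Stem was 0.91 (adjusted p = 0.087) and that from Enterocyte 0.46 (adjusted p = 0.55), and with EEC 1 left out the difference from AbsPro was 2.00 (adjusted p = 0.00015). Among the non-endocrine types, Ddc was lower in Tuft than in AbsPro in 5 of 5 libraries (log2 -1.54 ± 0.35, adjusted p = 0.0040, where 1.64% of genes were called lower), a call lost without AbsPro 1, Tuft 2 or Tuft 3 (adjusted p up to 0.0138).

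Slc18a1, which fills the granules with serotonin, was high in EEC and low elsewhere, as Tph1 was. It had 2517 and 9702 normalized counts in EEC 1 and 2 (6109 ± 5081, SD, n = 2) against 0, 7.04 and 8.09 in Stem. AbsPro libraries had 78.4, 26.8 and 77.8, and SecPDG 117, 98.2, 120.5 and 145. Tuft ranged from 133 to 269 with a median of 209, and Enterocyte from 168 to 313 with a median of 219. Both EEC libraries were above all others, and every Stem library was below all others. The EEC level was 10.17 ± 0.71 (log2, SE) above Stem (adjusted p = 1.3e-11) and 4.69 ± 0.45 above Enterocyte (adjusted p = 1.5e-08). SecPDG and AbsPro did not overlap, yet were not called apart (0.98 ± 0.46, adjusted p = 0.29). Outside EEC, the gene kept 0.999% to 3.87% of the EEC mean in the 4 types other than Stem. Enterocytes had more of it than AbsPro in 5 of 5 libraries (log2 1.95 ± 0.46, adjusted p = 0.0046, where 1.91% of genes were called higher), which was lost without AbsPro 2 (adjusted p = 0.049) or Enterocyte 3 (adjusted p = 0.012). A second vesicular transporter, Slc18a2 (VMAT2), had 284 and 420 normalized counts in EEC 1 and 2 and was not called against Stem (log2 1.42 ± 0.69, adjusted p = 0.091).

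In EEC, Chga and Chgb were the most abundant of the 6 genes. Chga took 2.78% (95% exact binomial interval 2.76 to 2.80) of all counts in EEC 1 and 4.50% (4.49 to 4.51) in EEC 2. Chgb took 4.86% (4.84 to 4.88) and 5.45% (5.44 to 5.47). These intervals cover counting error only. The 6 genes together took 8.001% and 10.8% of counts in EEC 1 and 2 and at most 0.314% elsewhere. Scaled, Chga had 207151 and 717106 normalized counts in EEC 1 and 2, and Chgb 361992 and 869163. In Stem, Chga had 135, 62.1 and 8.76 and Chgb 282, 67.2 and 190.02, so that both genes were low but read in all 3 libraries. The AbsPro libraries had 2979, 744 and 2830.5 normalized counts of Chga and 11045, 2259 and 10869 of Chgb. AbsPro 2 was the low library for both. In SecPDG, Chga had 1142, 501, 1254 and 1147 and Chgb 4107, 1368, 4264 and 4052, with SecPDG 2 low for both. In Tuft, Chga had 791, 439, 1107, 1466 and 8968 and Chgb 3069.6, 811, 2328, 1644 and 16485. Tuft 5 was the high library for both genes, and for Tph1. Enterocytes had 8561, 3768, 2327, 3338 and 2719 normalized counts of Chga and 16556, 7579, 3793, 5882 and 8349 of Chgb, with Enterocyte 1 highest.

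Both chromogranin genes were higher in EEC than in each of the other 5 cell types. The log2 difference from Stem was 12.72 ± 1.36 for Chga (adjusted p = 4.2e-08) and 11.74 ± 1.28 for Chgb (adjusted p = 4.9e-08). From Enterocyte it was 6.80 ± 0.88 for Chga (adjusted p = 2.3e-06) and 6.19 ± 0.83 for Chgb (adjusted p = 4.7e-06). Without EEC 1 the latter pair were 7.42 and 6.68. Among the other types, no neighbours in the order of either gene differed by the test until SecPDG against Stem, where Chga was higher by 3.88 ± 0.92 (adjusted p = 0.0066) and Chgb by 4.26 ± 0.91 (adjusted p = 0.0021). Per length the order of the 6 genes in EEC was Chgb, Chga, Tph1, Slc18a1, Ddc and Tac1. Their mean EEC levels in RPKM (reads scaled to exon length and library size) were 16427, 12261, 816, 82.7, 44.3 and 9.65.

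**Figure D2:**
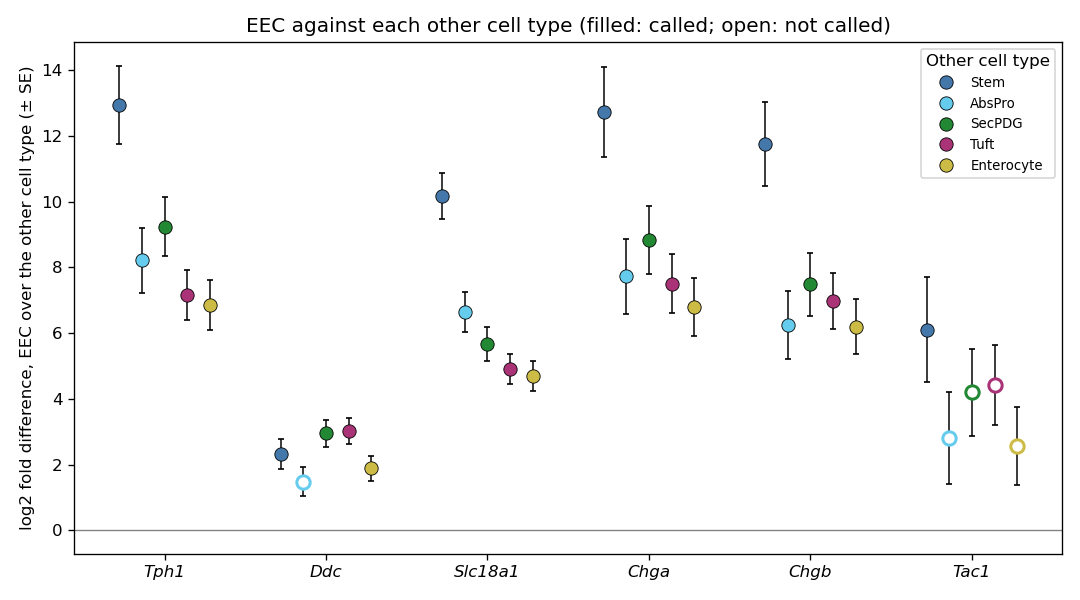
Fitted log2 difference between EEC and each other cell type, for the 6 genes, with a standard error derived from the F statistic. Filled points passed the call rule and open points did not. Tph1, Slc18a1, Chga and Chgb have 5 filled points each, Ddc has 4 and Tac1 has 1.

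The 2 chromogranins did not keep one proportion. In counts within a library, Chgb was 1.75 times Chga in EEC 1 and 1.21 times in EEC 2. It was 3.71, 3.03 and 3.84 times Chga in AbsPro, and 3.59, 2.73, 3.40 and 3.53 times in SecPDG. Every AbsPro and SecPDG library was thus above both EEC libraries. Tuft ratios were 3.88, 1.85, 2.10, 1.12 and 1.84, and those of Enterocyte 1.93, 2.01, 1.63, 1.76 and 3.07. Tuft 1 and Enterocyte 5 reached or passed the SecPDG range. In Stem, the ratio ran from 1.08 to 20.6, the last resting on 13 reads of Chga. The log2 ratio was 1.72 ± 0.18 (SD, n = 4) in SecPDG, 0.99 ± 0.64 (n = 5) in Tuft and 1.02 ± 0.35 (n = 5) in Enterocyte. Of the 3 comparisons tested by a 2-sided exact permutation test over libraries, SecPDG against Enterocyte gave a difference of 0.70 (p = 0.032, adjusted p = 0.095), SecPDG against Tuft 0.73 (p = 0.079, adjusted p = 0.12) and Tuft against Enterocyte -0.03 (p = 0.94). None passed an adjusted 0.05. The groups of 2 or 3 libraries were not tested.

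**Figure D3:**
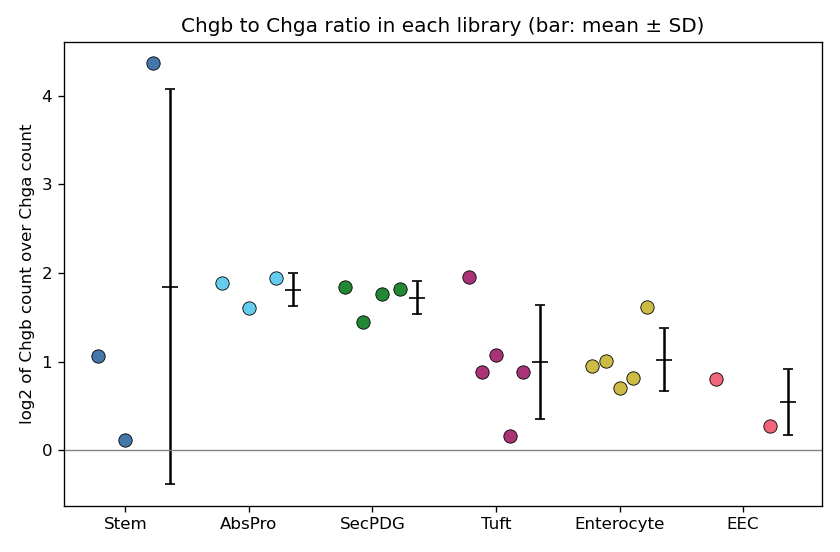
The log2 ratio of Chgb to Chga counts in each library, with the mean and SD of each cell type beside the points. AbsPro and SecPDG libraries lie between 1.45 and 1.94, the EEC libraries at 0.81 and 0.28, and the Stem libraries are spread from 0.11 to 4.36.

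Tph1 was also set against Chga within libraries, as a description. It had 0.113 and 0.159 reads per Chga read in EEC 1 and 2. Enterocytes had 0.134 to 0.166 and lay within or near that range. SecPDG had 0.0893 to 0.137, AbsPro 0.0749 to 0.135, and Tuft 0.154 to 0.432, with Tuft 5 the lowest of its group.

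Tac1, the tachykinin precursor, was the weakest of the 6 genes in EEC. EEC 2 had 807 normalized counts (665 reads) and EEC 1 had 90.4 (50 reads), a gap of 8.93 times where Chgb differed by 2.40 times between the 2 libraries. The Enterocyte libraries had 151, 53.9, 55.5, 62.7 and 58.2, so that EEC 1 lay among them. AbsPro had 77.004, 0 and 116, SecPDG 2.84, 23.6, 45.5 and 25.5, and Tuft 0, 24.0, 12.6, 11.5 and 55.2. Stem had 7.65, 10.2 and 1.35. The background gauge was set beside these reads. It would give 18.2 of the 50 reads in EEC 1, 4.57 of the 665 in EEC 2, 8.11 to 9.25 of the 10 to 19 reads in Tuft 2, 3 and 4, and 6.30 to 17.7 of the 42 to 103 reads in Enterocyte. Its part in the differences was not tested. Tac1 was called higher in EEC than in Stem (log2 6.10 ± 1.60, adjusted p = 0.0043), and without EEC 2 the difference was 3.79 (adjusted p = 0.074). It was not called against SecPDG (4.20 ± 1.32, adjusted p = 0.0139), Tuft (4.42 ± 1.23, adjusted p = 0.0155), AbsPro (2.80 ± 1.41, adjusted p = 0.11) or Enterocyte (2.56 ± 1.19, adjusted p = 0.24). Without EEC 1 the call against Tuft was gained (5.15, adjusted p = 0.0055). The call against Stem was also lost without any 1 of the Stem libraries (adjusted p = 0.0158 to 0.0232), and DESeq2 called the gene against SecPDG and Tuft as well.

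All 6 genes were called higher in EEC than in Stem, where 6.58% of the genes tested were called higher. Against AbsPro 4 of the 6 were called higher (4.72% of genes), against SecPDG 5 (6.65%), against Tuft 5 (1.77%) and against Enterocyte 5 (1.73%). Tph1, Slc18a1, Chga and Chgb were higher than in all 5, which held for 0.68% of genes. Without EEC 1 the counts were 6, 5, 5, 6 and 5, and without EEC 2 they were 4, 4, 5, 5 and 4, in the same order of comparisons. When only the 5 libraries of Stem and EEC were fitted, 2 genes, Tph1 and Slc18a1, were called, with Chga at an adjusted p of 0.018 and Chgb at 0.019. The 5 comparisons share the 2 EEC libraries.

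The same 4 genes were also higher in every other cell type than in Stem. In AbsPro against Stem, Tph1 (log2 4.73 ± 0.89, adjusted p = 0.0035), Slc18a1 (3.53 ± 0.58, adjusted p = 0.0010), Chga (4.99 ± 0.99, adjusted p = 0.0056) and Chgb (5.49 ± 0.98, adjusted p = 0.0023) were called, where 0.342% of genes were called higher. In SecPDG the same 4 of the 6 were called (2.41% of genes), in Tuft 4 (4.42%) and in Enterocyte 4 (5.6%). Ddc and Tac1 were called in none of these 4 comparisons by the edgeR test, but both passed in Enterocyte with DESeq2 (Ddc 0.93, adjusted p = 0.00099, and Tac1 4.19, adjusted p = 0.00055). Ddc also passed there with RLE size factors (0.93, adjusted p = 0.0057) and Tac1 in the fit of only the 2 cell types (3.87, adjusted p = 0.0019), and the Tac1 level of every Enterocyte library was above that of every Stem library. Ddc had log2 differences of 0.85 ± 0.41 in AbsPro, -0.62 ± 0.38 in SecPDG, -0.70 ± 0.36 in Tuft and 0.44 ± 0.37 in Enterocyte, and Tac1 had 1.68 ± 1.22 to 3.54 ± 1.34. The AbsPro and SecPDG counts depended on single libraries. Without Stem 2 or Stem 3 only 1 of the 6 genes, Slc18a1, was called in AbsPro, and likewise in SecPDG, and without Stem 1 there were 2 in each. Without AbsPro 3 there were 2 in AbsPro, and without SecPDG 1 or SecPDG 3 there were 2 in SecPDG. In Tuft and Enterocyte 4 were called whichever library was left out. These 4 comparisons and that of EEC share the 3 Stem libraries.

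Between the 4 types other than Stem and EEC, 3 further differences were called in 6 comparisons. None of the 6 genes was called between SecPDG and AbsPro (2.22% of genes called), Tuft and SecPDG (0.9%) or Enterocyte and Tuft (6.31%), though DESeq2 called Ddc lower in SecPDG than in AbsPro and higher in Enterocyte than in Tuft. The calls of Ddc in Tuft and of Slc18a1 in Enterocyte, both against AbsPro, are given above. The third called difference was that of Tph1, higher in Enterocyte than in SecPDG in 5 of 5 libraries (log2 2.39 ± 0.64, adjusted p = 0.0055, where 5.19% of genes were called higher), and it was lost without any 1 of the SecPDG libraries or without Enterocyte 1 (adjusted p up to 0.027).

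**Figure D4:**
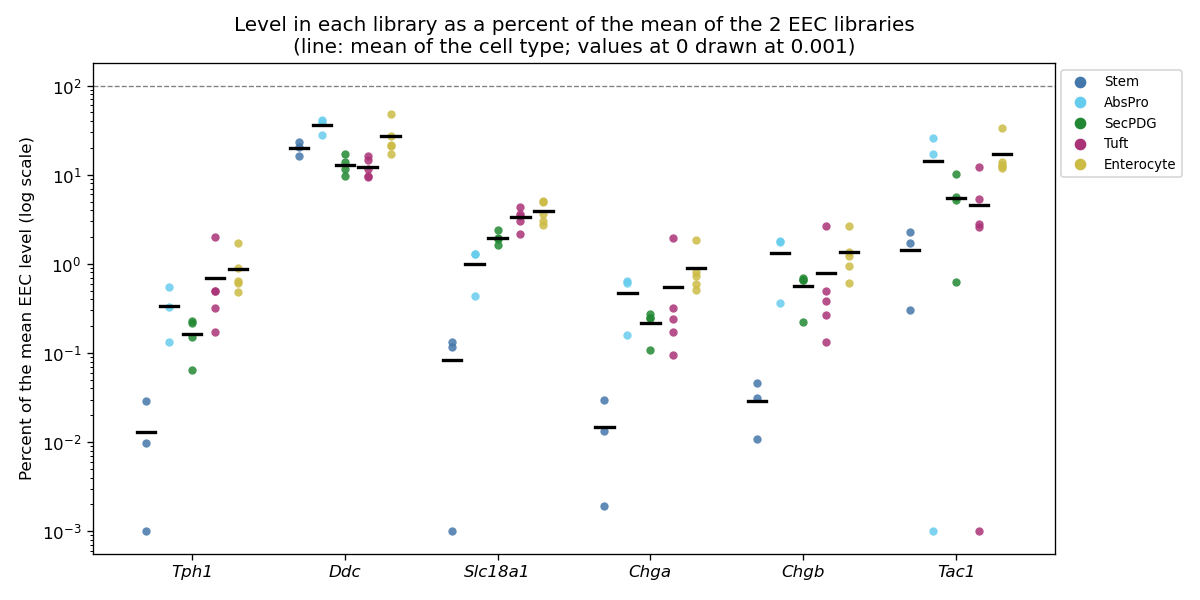
Level of each gene in each library outside EEC as a percent of the mean of the 2 EEC libraries (log scale), by cell type, with the mean of the cell type as a line; libraries at 0 are drawn at 0.001, and the dashed line marks 100%. Cell type means of Tph1 and Chga stay under 1%, those of Chgb under 1.4%, those of Slc18a1 under 3.9%, and those of Ddc and Tac1 reach 35.9% and 17.0%.

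Set as a percent of the EEC mean, the 6 genes did not stand at one level in any cell type. In Enterocyte, Tph1 was at 0.87%, Chga at 0.896%, Chgb at 1.37% and Slc18a1 at 3.87%, while Tac1 was at 17.0% and Ddc at 27.1%. In SecPDG, Tph1 was at 0.165%, Chga at 0.219%, Chgb at 0.56%, Slc18a1 at 1.97%, Tac1 at 5.43% and Ddc at 12.97%. Tph1 was thus the lowest and Ddc the highest in both types. Stem was lowest for 5 of the genes, with means from 0.0129% for Tph1 to 1.43% for Tac1, and for Ddc, at 20.0%, it was above SecPDG and Tuft.

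The rest of the serotonin route was mostly not higher in EEC than in Stem. Of its 13 genes, 4 were called higher in EEC than in Stem, 1 lower and 8 neither (6.58% and 7.45% of all genes), with a median log2 difference of 0.35. The median over the genes with a mean of at least 50 normalized counts was -0.33 in the same comparison and was 0.53 with DESeq2-type size factors, so differences within that range depend on the scaling. Beside the 3 members, Gch1 was called. Without EEC 2 only 2 of the 4 were called, Tph1 and Slc18a1. Gch1, GTP cyclohydrolase, opens the synthesis of the tetrahydrobiopterin that Tph1 needs, and had 224 and 1977 normalized counts in EEC 1 and 2 against 52.2 ± 11.4 (SD, n = 3) in Stem (log2 4.40 ± 0.65, adjusted p = 8.8e-06). It was also called above the other 4 types, although EEC 1 lay inside the Enterocyte range of 205 to 315. Spr, sepiapterin reductase, a later enzyme of that route, had 50.6 and 294 normalized counts in EEC and 1174 in Stem as a mean, and fell (log2 -2.76 ± 0.55, adjusted p = 0.00041). Tph2, the neuronal hydroxylase, had 177 and 61.9 normalized counts in EEC, close to the Stem mean of 113 (log2 0.08 ± 0.94, adjusted p = 0.99). Slc6a4, the serotonin transporter that takes serotonin back up, had 302 and 63.1 in EEC against 143 in Stem as a mean (log2 0.35 ± 0.70, adjusted p = 0.72). Maoa, which breaks serotonin down, had 347 and 9708 in EEC, a spread wider than its difference from Stem (log2 -0.24 ± 0.63, adjusted p = 0.80). Against the 5 other types, Maoa and Slc18a2 were each called higher in EEC than 1. Qdpr, also of this list, was called higher than 3, with 774 and 2824 normalized counts in EEC 1 and 2.

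**Figure D5:**
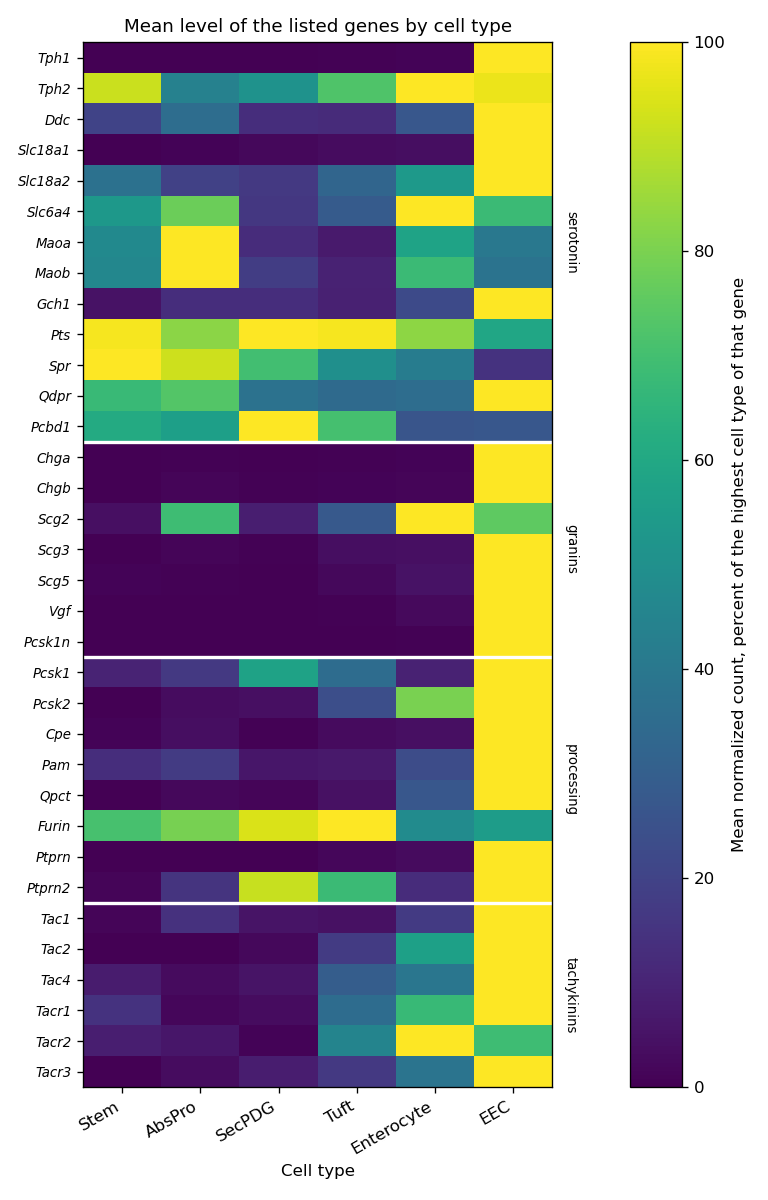
Mean normalized count of each gene of 4 lists in the 6 cell types, as a percent of that gene's highest cell type (yellow, 100). Tph1, Slc18a1, Gch1 and 6 of the 7 granin genes peak in EEC, whereas Tph2, Slc6a4, Maoa, Maob, Pts, Spr, Pcbd1, Scg2, Furin and Tacr2 peak elsewhere.

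The granin family was higher in EEC nearly throughout. Of 7 genes, 6 were called above Stem and above all 5 other types, Chga and Chgb among them, and the median log2 difference from Stem was 11.74, against -0.33 over the genes with a mean of at least 50 normalized counts (11.68 with Vgf, at 0 in Stem, set to its bound from 3 counts per Stem library). Pcsk1n, the inhibitor of prohormone convertase 1, had 5151 and 20639 normalized counts in EEC 1 and 2 against a mean of 88.3 in Enterocyte. Scg3, which helps carry chromogranin A to the granule, had 1619.9 and 3137 against 99.4 in Enterocyte. Scg5, the chaperone 7B2 of convertase 2, had 1023 and 3168, and Vgf 826 and 3109. Scg2 was the exception, with 101 in EEC 1 and 0 in EEC 2 (log2 4.11 ± 1.92, adjusted p = 0.080). Among 8 genes that process prohormones, 5 were called above Stem. Cpe, carboxypeptidase E, had 1859 and 6834 normalized counts in EEC against 37.7 in Stem as a mean (log2 6.86 ± 1.09, adjusted p = 2.4e-05). Pcsk1, convertase 1, was called above Stem (log2 3.35 ± 0.48, adjusted p = 4.7e-06) and was at a mean of 827 in SecPDG. Pcsk2, convertase 2, had 255 in EEC 1 and 30.3 in EEC 2, and its mean over all libraries was under 50. Of the 6 tachykinin genes, the 5 other than Tac1 were not called, and Tac2, Tac4, Tacr1, Tacr2 and Tacr3 were each higher in EEC 1 than in EEC 2. Tac2 and Tacr3 had edgeR adjusted p of 0.0047 and 0.0058 against Stem, but means over all libraries under 50. The background gauge was likewise higher in EEC 1 (1.30) than in EEC 2 (0.102), and its part in these values was not tested.

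Other cells that hold serotonin, granins or Tac1 were looked for by their markers. None of 10 mast cell genes was called in EEC against Stem by the edgeR test. Of these, 4 had an unadjusted p under 0.05 and DESeq2 called 1 higher. The list summed to 748 and 283 normalized counts in EEC 1 and 2, to 249 to 581 in Enterocyte and to at most 88.0 in Stem. Ms4a2 was at 0 in both EEC libraries, whereas Hdc had 262 and 170 there against at most 126 in any other library. Against Stem, Hdc had an edgeR adjusted p of 0.048. Tpsab1 had 16.3 and 100.7 in EEC 1 and 2 (adjusted p = 0.0054), but its mean over all libraries was under 50. Of 12 enteric neuron genes, 6 were called higher (Ret, Nefl, Nefm, Nos1, Chat and Snap25), with sums of 5905 and 10705 in EEC against 69.1 to 91.03 in Stem and 1159 to 2533 in Tuft. Ret, a receptor tyrosine kinase, had 1139 and 3974 normalized counts in EEC 1 and 2 and Snap25, a protein of vesicle fusion, 1416 and 4354, and both were called above all 5 other types. So was Nefm, a neurofilament subunit, with 1181 and 1746, while Nefl, another subunit, had 524 and 108. All 12 genes had an unadjusted p under 0.05. Among those not called, Elavl4 had 186 and 66.7 normalized counts in EEC 1 and 2 against at most 119.9 in any library of the other types, and Tubb3 had 39.8 and 0. Of 6 enteric glia genes none was called by the edgeR test, 4 had an unadjusted p under 0.05 and DESeq2 called 1 higher. Sox10, S100b and Foxd3 had 157, 57.9 and 81.4 normalized counts in EEC 1 and were at 0 in EEC 2, and Gfap had 405 and 10.9. Sox10 in EEC 1 was above every library of the other types, which reached 99.4. The share of all genes that pass the unadjusted cut is not given here. The mast cell, neuron and glia counts at that cut therefore have no rate to be set against. With the call threshold loosened to 0.05 after adjustment, EEC against Stem had 5382 calls, in either direction, among the 22781 genes. The part of mast cells, neurons and glia in the Tac1 and granin values was not tested.

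Genes that sense stimuli in enterochromaffin cells were partly higher in EEC. Of 12 listed, 6 were called above Stem, and the calcium channel genes Cacna1a and Cacna1h and the sodium channel gene Scn3a above all 5 other types. Cacna1h had 1367 and 9304 normalized counts in EEC 1 and 2 and a mean of 17.9 in Stem (log2 8.22 ± 0.76, adjusted p = 3.3e-09). Trpa1, an irritant-gated channel, had 36.2 and 6.07 in EEC and a mean of 51.3 in Enterocyte (log2 4.71 ± 2.14 against Stem, adjusted p = 0.072). Of 9 peptide hormone genes, 2 were called above Stem, Sst and Sct. Gcg, a hormone gene of other enteroendocrine cells, had 0 and 2.43 normalized counts in the EEC libraries and a mean of 2676 in Enterocyte, and Pyy had 32.5 and 88.6 against 558. Sct, which encodes secretin, had 5948 and 12405 in EEC and was called above all 5 other types.

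The genes whose pattern was most like each member were found by Pearson's r of log2 normalized counts (1 added) over the 22 libraries, among 13187 genes with a mean of at least 50. Both EEC libraries were above the other 20 in every gene named next except Smad7, Aim1, Evpl and Zfp608, and r draws on that gap. Chga and Chgb had r = 0.968 with each other, and Tph1 had 0.963 with Chgb and 0.955 with Chga. Beside them, Tph1 was most like Tm4sf4 (0.92), Sis (0.918) and Map1b (0.916), Chga most like Lmx1a (0.915), Rimbp2 (0.911) and Sis (0.903), and Chgb most like Neurod1 (0.93), Sis (0.926) and Rimbp2 (0.916). Sis encodes sucrase-isomaltase, a digestive enzyme of the brush border, and had 902 and 3998 normalized counts in EEC 1 and 2 against at most 475 in any other library. Lmx1a and Neurod1 encode transcription factors of endocrine cells. Slc18a1 was most like Tm4sf4 (0.948), Lmx1a (0.94), Stk32a (0.928), Cbln3 (0.919) and Dlk1 (0.918). Its r with Tph1 was 0.879. Ddc had another set, with Pam (0.939), which amidates peptides, Smad7 (0.917), an inhibitor of TGF-beta signalling, Aim1 (0.871), Evpl (0.870) and Zfp608 (0.870), and r of 0.549 with Tph1 and 0.367 with Slc18a1. Tac1 was most like Amigo2 (0.872), Rimkla (0.858), Sstr1 (0.849), Tnfrsf11b (0.818) and Rfx6 (0.817), all with values in EEC 2 above those in EEC 1.

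Reads on exons and across their junctions were deposited for 4 skipped exons in the 6 genes, and the clearest was exon 2 of 8 of Chga at chr12:102555885-102555931 (mm10, plus strand). This coding exon has 47 bases, which leaves 2 bases over whole codons, and is shown because skipping it would shift the reading frame.
Chga exon 2: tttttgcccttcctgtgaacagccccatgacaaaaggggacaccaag
The sequence is from the GENCODE vM21 transcript (GRCm38). Nearly all Chga transcripts of EECs held the exon. In the 2 EEC libraries, whose order in that table does not tell which is EEC 1, 37 reads skipped the exon beside 6871 inclusion reads, which lie on the exon or its junctions (0.536% of reads, 95% exact interval 0.377 to 0.738), and 390 beside 29051 (1.32%, 1.20 to 1.46). Adjusted for the length on which each form can be read, the skipped form was 0.788% and 1.94%. Stem had 0 skipping reads of 99, 98 of them in 1 library, which allows a share of up to 3.03%, so a difference from EEC was not detectable at this depth. Enterocytes had 4 skipping reads of 575 in all, in 3 of 5 libraries, Tuft 4 of 693 in 2 of 5 libraries, and SecPDG 7 of 120 in 2 of 4. The 2 events of Ddc (102 and 114 bases) had at most 3 skipping reads in any library, and that of Slc18a1 (75 bases) at most 8 reads of both forms together in any.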

How the data were processed

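The authors made low-input SMARTer libraries from sorted cells and deposited gene counts from STAR 2.5.2a (mm10) and HTSeq 0.6.1p1, without strand, so reads of overlapping antisense genes cannot be told apart. Skipped exon reads came from their rMATS tables, and the place of a library there is not its replicate number. The 5 classes of reads not counted on a gene (53.9% to 91.6% of reads) were left out of library sizes.

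The members and lists were chosen with earlier results of these data known. One edgeR 4.0.16 quasi-likelihood fit (TMM, filterByExpr) of 22 libraries with cell type as its only term gave 15 comparisons, called by the study's thresholds, and was tested on simulated data. RPKM used GENCODE vM21 exon lengths (23376 genes matched). The Chgb to Chga ratio added 0.5 to each count before log2. Named genes were the 6 members, any gene of the 14 lists, and the 5 genes most like each member. Alternatives were DESeq2 1.42.0, RLE size factors, library totals, no filter on low counts, no minimum mean, an adjusted p of 0.05, fits of 2 cell types, a replicate block, 5 added to the ratio's counts, and leaving out each library. The deposited polyadenylation and MAJIQ tables hold no event of these genes and were not used, nor were the authors' own p-values and differences. Per the study, replicates were independent sorts. Neither a protein sequence nor a Slc18a1 promoter was analysed here.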

Additional observations from a re-analysis of the deposited data

Results flagged for a closer look

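Of 18 groups of 4 or 5 libraries, 3 cell types for each of the 6 genes, 7 held a library that lay far from the others by Dixon's criterion on unlogged normalized counts. The groups share libraries, and several of the genes have like patterns, so the 7 are not independent. The number that chance would give was not estimated. Tuft 5 was high for Tph1 (1380.2 normalized counts), Chga (8968) and Chgb (16485). Enterocyte 1 was high for Chga (8561) and Tac1 (151). SecPDG 2 was low for Chga (501) and Chgb (1368). Tuft 5 had the most counts of its cell type, 20892532, and Enterocyte 1 the fewest of its own, 5950619. The part of depth in these values was not tested.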

How the results depend on the processing

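Each difference of a single gene was checked again under each alternative that applied to it. Of these checks, 1254 kept the direction and side of the threshold, 49 gained a call, 54 lost one and 23 changed sign, none of the latter called either way. The 1254 include 601 from leaving out single libraries. They also include 90 each from no filter on low counts and no minimum mean, where nothing changed. EEC rests on 2 libraries that differed by 2.40 times (Chgb) to 8.93 times (Tac1) in the 6 genes. Tac1 in most libraries, and Tph1 and Slc18a1 in Stem, rest on few reads.

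Members called under the fit of only the 2 cell types were 2 in AbsPro against Stem, EEC against Stem, Enterocyte against AbsPro and EEC against Enterocyte, 1 in SecPDG against AbsPro, EEC against AbsPro and Enterocyte against Tuft, and 4 in Enterocyte against SecPDG. Over all genes that fit called 3073 in Enterocyte against AbsPro and 98 in EEC against AbsPro. At an adjusted p of 0.05, with RLE size factors, with library totals and with DESeq2 alike, there were 1 in SecPDG against AbsPro, 2 in Tuft against AbsPro, 4 in Enterocyte against SecPDG and 1 in Enterocyte against Tuft. DESeq2 called 1 mast cell, 1 enteric glia, 2 goblet and 5 immune genes. Over all genes, calls in EEC against Stem were 3197, 5708 with DESeq2 and 261 with only the 2 cell types, in EEC against Enterocyte 657, 2060 and 214, in EEC against Tuft 1208, 2874 and 486, and in AbsPro against Stem 83, 441 and 310. In that order they were 3349, 5900 and 5789 in Enterocyte against SecPDG, and 506, 1470 and 1315 in SecPDG against AbsPro. Tuft against AbsPro had 901, 3050 and 1703, and Enterocyte against Tuft 1438, 2611 and 2894. For these comparisons in turn, an adjusted p of 0.05 gave 6001, 844, 2141 and 2319. RLE size factors gave 3979, 926, 1430 and 1857, and library totals 4094, 932, 1406 and 1802. Each of these edgeR fits of all libraries tested 22781 genes.

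Replicate numbers did not pair libraries: 44 same-number pairs had correlations of -0.393 to 0.488 (median 0.00138), 16 of them over 0.1. Under the replicate block 5 of the 6 members were called in EEC against Stem, where 1253 of all 22781 genes were called higher. In SecPDG against AbsPro 1 member was called, and 544 of all genes in either direction. Signs changed for Chga, Tuft against AbsPro (-0.86) and Chgb, Tuft against SecPDG (-0.57).

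With single libraries left out, members called ranged from 1 to 4 in AbsPro and SecPDG against Stem, from 4 to 6 in EEC against Stem, from 4 to 5 in EEC against AbsPro and Enterocyte, from 5 to 6 in EEC against Tuft, from 0 to 2 in Tuft against AbsPro, and from 0 to 1 in Enterocyte against AbsPro, SecPDG and Tuft. List counts ranged from 2 to 4 (serotonin), 0 to 1 (tachykinin), 0 to 2 (goblet), 3 to 7 (enterocyte) and 1 to 2 (immune). The log2 Chgb to Chga ratio ranged from 0.52 to 0.97 for SecPDG against Tuft (0.97 without Tuft 1, exact permutation test, adjusted p = 0.048) and from -0.27 to 0.18 for Tuft against Enterocyte (0.18 without Tuft 4, 0.12 without Enterocyte 5).

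Log2 differences that changed sign were those of Ddc, Enterocyte against AbsPro (0.11 RLE, 0.0575 totals, 0.12 DESeq2) and Tuft against SecPDG (0.12 RLE, 0.20 totals, 0.12 DESeq2). With single libraries left out, Ddc ranged from -0.29 to 0.0786 in Tuft against SecPDG. Chga ranged from -1.20 to 0.50 in Tuft against AbsPro and from -0.0887 to 1.61 in Tuft against SecPDG. Chgb ranged from -0.81 to 0.77 in Tuft against SecPDG and from -0.51 to 0.25 in Enterocyte against AbsPro. Tac1 ranged from -1.01 to 0.27 in Tuft against SecPDG and from -0.34 to 0.84 in Enterocyte against AbsPro. In Enterocyte against Tuft, Tph1 ranged from -0.20 to 1.23 and Slc18a1 from -0.0405 to 0.34. The cause of these changes was not tested.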
